A study of Mus musculus with 6 samples.

Results

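The genes described here encode the proteins of blood clotting and of clot removal, 31 genes named by a list of coagulation and fibrinolysis factors, of 13493 genes compared in mouse liver. Of the 31, 29 had at least 1 array probe of their own, and all 29 lay above the intensity filter and were tested. Klkb1 was read only by a probe that it shares with its neighbour Cyp4v3 and is given apart, and Cpb2, which encodes a carboxypeptidase that slows clot removal, was not analysed here. The list was divided by the main source of each protein. It held 24 genes for plasma proteins made by hepatocytes (22 tested), 5 genes better known from endothelial cells (F8, Thbd, Tfpi, Vwf and Plat), and F3 and Plau, which other cells use as well.

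Livers came from male C57BL/6 mice, 8 weeks old when their acclimatization began. The Vascepa group (3 arrays) received Vascepa, a drug that delivers eicosapentaenoic acid (an omega-3 fatty acid) as its ethyl ester, for 7 days and then 6 weeks of high-fat diet. The vehicle group (3 arrays) received vehicle and then the same diet, so the diet was common to both groups and no livers without it were analysed here. No label ties the samples to animals, so each p-value measures only how far these samples spread, and that spread may be technical. Each sample was total RNA of whole liver on 1 Affymetrix array, and a level is the deposited log2 RMA value of a gene's brightest probe. The hepatocyte product Alb (albumin) read between 13.18 and 13.33 on all 6 arrays. It was 1 of 11 hepatocyte markers measured. Their spread over the arrays differed, from Apoa1 (11.72 to 11.83) to Serpina1e (7.98 to 9.92).

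Clotting is a chain of proteases, most of them made in the liver as inactive precursors. Tissue factor (F3) and factor VII (F7) start the chain, factors IX, X and their cofactors VIII and V carry it on, and thrombin (F2) ends it by turning fibrinogen into fibrin. Antithrombin, heparin cofactor II and the protein C pathway hold the chain back, and plasmin, made from plasminogen, dissolves the clot. Endothelial cells carry thrombomodulin, tissue factor pathway inhibitor and von Willebrand factor, and in the liver they are the main source of factor VIII. Omega-3 fatty acids are known for their effects on platelets, and the comparison addresses liver transcripts alone.

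None of the 29 tested genes passed an adjusted p of 0.05 (limma with Benjamini-Hochberg adjustment over 13493 genes, adjusted p between 0.976 and 0.998), against 0% of all genes tested. At an unadjusted p under 0.05 there were 0 of 29, against 2.68% of all genes. The difference, Vascepa minus vehicle on the log2 scale, was below 0 in 25 of 29 genes, against 60.1% of all genes, with a median of −0.21 beside −0.063 for all genes tested. The exceptions were F13b, F5, Plat and Plau. A stricter filter, at the 75th percentile of all probes (4.34), left 7211 genes and 23 members. Of these members 21 were lower, against 73.3% of the 7211 genes, whose median was −0.14. The groups did not overlap in 2 of 29 genes, F2 and Kng2, both lower in Vascepa livers, against 8.24% of all genes. With array weights, which gave Vascepa replicate 2 a weight of 39.5 and no other array more than 2.33, 30.4% of all genes passed (limma, adjusted p), and among them 7 of the 29, namely Vwf, F3, Plau, Pros1, Serpinf2, Fga and Kng2.

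Nearly all hepatocyte genes had the same order of the Vascepa arrays. Vascepa replicate 3 was the lowest of the 6 arrays in 22 of 22 hepatocyte plasma protein genes, against 38.8% of all genes. Replicate 1 lay above replicate 2 and replicate 2 above replicate 3 in 21 of 22, with F13b as the exception, against 35.3% of all genes. Both shares of all genes include dim genes down to the filter level of 2.65, and no shares among equally bright genes were taken. Measured from the mean of the vehicle arrays, the median of the 22 genes was 0.15, −0.18 and −0.61 on Vascepa replicates 1, 2 and 3, and 0.10, −0.10 and −0.0063 on vehicle replicates 1, 2 and 3. Over all genes tested the same medians were 0.019, −0.046 and −0.12 in Vascepa livers, against 0.012, −0.014 and 0.015 in vehicle livers. Without Vascepa replicate 3 the median of the 22 genes was 0.0014 and 16 of 29 genes were lower, against 53% of all genes. Without Vascepa replicate 1 the median was −0.39. In bulk liver, fewer hepatocytes and less RNA per hepatocyte cannot be told apart.

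**Figure D1:**
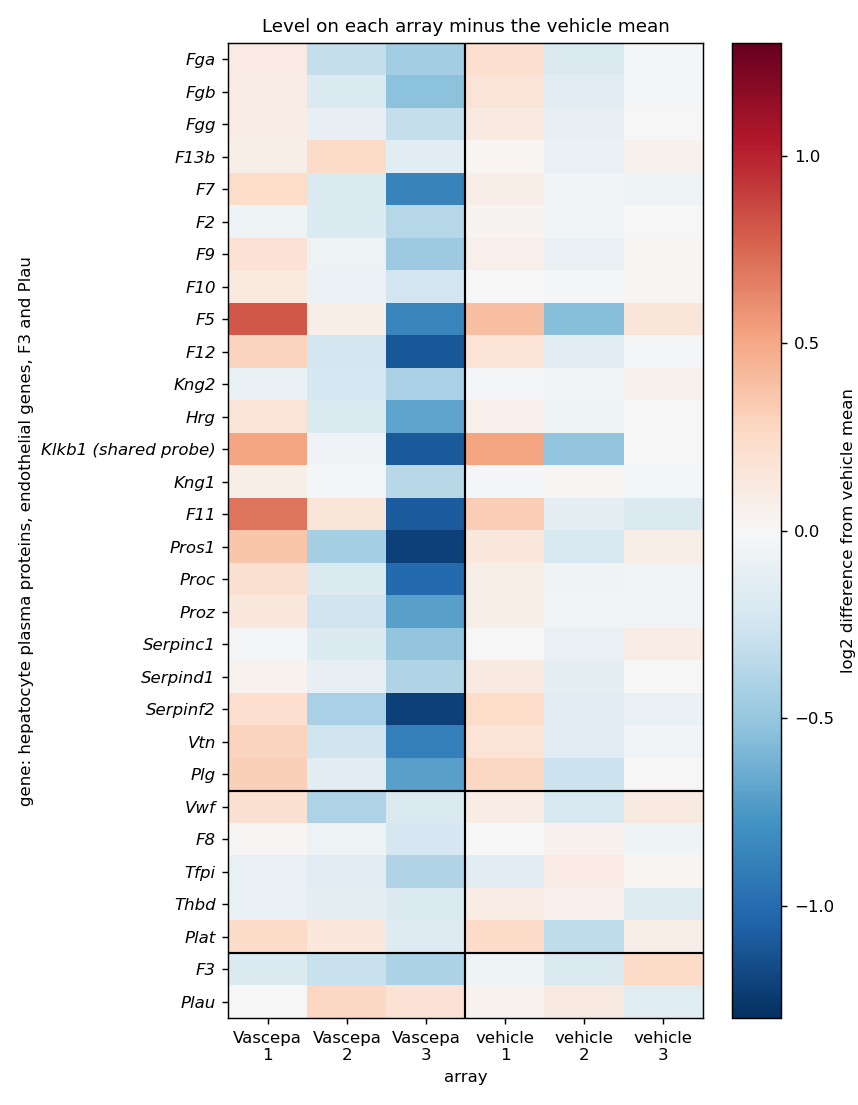
Log2 level of 30 genes (rows) on the 6 arrays (columns, Vascepa on the left) minus the vehicle mean of the gene, with red for higher and blue for lower. Horizontal lines separate hepatocyte plasma proteins, endothelial genes, and F3 and Plau. The column of Vascepa replicate 3 is the bluest, down to −1.22 in Pros1.

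Some other measures of the arrays moved with this order. The median level over all probes was 2.63, 2.70 and 2.81 on Vascepa replicates 1, 2 and 3. On vehicle replicates 1, 2 and 3 it was 2.62, 2.67 and 2.62. The mean level of 97 small nucleolar RNA probes was 4.61, 5.55 and 6.01 on Vascepa replicates 1, 2 and 3 and 4.76, 5.42 and 4.92 on vehicle replicates 1, 2 and 3, so the hepatocyte clotting genes lay low where these small RNAs were high. The part of RNA quality in the result was not tested. Among the vehicle arrays too, replicate 2 was the lowest in 19 of the 22 hepatocyte genes, against 41.4% of all genes. With this small RNA score as a covariate, 21 of 29 genes were lower, against 55.5% of all genes, and the median of the hepatocyte genes was −0.047 beside −0.029 for all genes. Vascepa replicate 3 also had the lowest mean correlation with the other arrays, r = 0.961 against 0.974 to 0.981 for the rest. Of 12 hepatocyte markers outside the list 11 had a probe of their own. Vascepa replicate 3 was the lowest array in 8 of the 11, and 7 of 11 had Vascepa replicate 1 above 2 above 3, with Ttr, Apoa1, Rbp4 and Hpx as exceptions. Their median lay at 0.026, −0.036 and −0.30 in Vascepa livers and between −0.011 and −0.0021 in vehicle livers. The log2 of their summed level ranged from 15.35 to 15.62 in Vascepa livers and from 15.58 to 15.60 in vehicle livers.

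Fibrinogen is built from 3 chains whose genes Fgg, Fga and Fgb follow one another on chromosome 3. The promoter letters of the 3 genes are shown because the chains went up and down together across the arrays and because fibrinogen is a classical target of interleukin-6. Their order of the Vascepa arrays was that of 21 of the 22 hepatocyte genes and thus not particular to fibrinogen. Each line gives the 250 bases before the annotated start, 5′ to 3′ along the gene's own strand, from RefSeq on the build GRCm38.p6. Capitals mark exact matches, on either strand, to TTGCNNAA (bound by C/EBP factors), GTTAAT (part of the site of HNF1), TTCNNNGAA (bound by STAT factors) and CTGGGA (of the interleukin-6 response element). No match of CAAAGTCCA, a site of HNF4, was found in them. The Fga stretch is chr3:83025903-83026152 on the plus strand, the Fgb stretch chr3:83049864-83050113 on the minus strand and the Fgg stretch chr3:83007474-83007723 on the plus strand.
Fga: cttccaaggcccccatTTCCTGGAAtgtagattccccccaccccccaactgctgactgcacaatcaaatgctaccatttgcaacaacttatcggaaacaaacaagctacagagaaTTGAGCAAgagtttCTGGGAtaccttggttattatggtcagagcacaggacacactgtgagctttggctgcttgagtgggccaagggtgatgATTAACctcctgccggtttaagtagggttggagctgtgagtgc
Fgb: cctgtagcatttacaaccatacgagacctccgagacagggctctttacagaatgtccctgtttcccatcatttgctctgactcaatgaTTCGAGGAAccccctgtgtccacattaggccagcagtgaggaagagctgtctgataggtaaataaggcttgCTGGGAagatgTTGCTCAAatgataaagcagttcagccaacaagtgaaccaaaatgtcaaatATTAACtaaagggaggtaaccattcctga
Fgg: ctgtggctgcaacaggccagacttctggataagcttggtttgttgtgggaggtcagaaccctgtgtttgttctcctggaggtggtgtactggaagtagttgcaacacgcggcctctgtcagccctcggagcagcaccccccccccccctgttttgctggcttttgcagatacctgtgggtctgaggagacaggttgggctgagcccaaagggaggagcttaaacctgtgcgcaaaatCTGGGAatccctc

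The Fga and Fgb stretches each held 1 match of 4 of the motifs, whereas Fgg held only CTGGGA, 8 to 13 bases before the start. In Fgb the CTGGGA match lay 86 to 91 bases and the C/EBP match 73 to 80 bases before the start. Of 32851 mouse promoter windows of the same length, 9.56% held TTGCNNAA, 6.43% GTTAAT, 7.02% TTCNNNGAA, 0.384% CAAAGTCCA and 27.0% CTGGGA. Among the windows of the 21 hepatocyte clotting genes that the promoter table held, 7 (33.3%) held TTGCNNAA, 5 (23.8%) GTTAAT, 4 (19.0%) TTCNNNGAA, 0 CAAAGTCCA and 8 (38.1%) CTGGGA, shares that were not tested against the others. A match is a run of letters and was not tested as a binding site.

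None of the fibrinogen chains passed the test. Fga, the alpha chain, read 11.15, 10.73 and 10.59 in Vascepa livers, against 11.26, 10.85 and 11.01 in vehicle livers. Fgb, the beta chain, read 12.46, 12.18 and 11.83 in Vascepa livers, against 12.54, 12.22 and 12.34 in vehicle livers. Fgg, the gamma chain, read 12.36, 12.16 and 11.96 in Vascepa livers, against 12.38, 12.15 and 12.26 in vehicle livers. In all 3 chains vehicle replicate 1 was the highest array and Vascepa replicate 3 the lowest, and the groups overlapped. The differences were −0.22 ± 0.22 in Fga, −0.21 ± 0.22 in Fgb and −0.11 ± 0.19 in Fgg (limma, SE, adjusted p = 0.976 for each). The 95% intervals, −0.72 to 0.29, −0.71 to 0.29 and −0.54 to 0.33, all include 0. Without Vascepa replicate 3 the differences were −0.10, −0.045 and −0.0055. F13b, the carrier subunit of the factor that crosslinks fibrin, had a different pattern, with 9.18, 9.34 and 8.96 in Vascepa livers, against 9.12, 9.01 and 9.15 in vehicle livers (0.064 ± 0.18), and its highest array was Vascepa replicate 2.

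Other acute phase genes, which the liver makes in response to interleukin-6 as it does fibrinogen, mostly had another order of the arrays, with 2 of 8 tested genes having Vascepa replicate 1 above 2 above 3 as the chains did. All 8 had differences below 0, with a median of −0.34 (−0.65 without Vascepa replicate 3), and none passed (limma). At an unadjusted p under 0.05 (limma) there were 2 of 8, Orm2 at −1.28 and Lcn2 at −1.60, against 2.68% of all genes. The groups did not overlap in 1 of 8, Hp, against 8.24% of all genes. The median of the 8 genes, measured from the mean of the vehicle arrays, was −0.92 on Vascepa replicate 1, −0.58 on replicate 2 and −0.21 on replicate 3. It was −0.28, −0.026 and 0.16 on vehicle replicates 1, 2 and 3. Saa2, a serum amyloid gene with the largest rise of all 13493 genes between Vascepa replicates 1 and 3, read 6.29, 5.99 and 11.42 in Vascepa livers, against 7.90, 8.04 and 11.37 in vehicle livers. It was thus high on the third array of both groups, and the fibrinogen chains were low on that of the Vascepa group but not on that of the vehicle group.

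Thrombin and the other vitamin K-dependent proteases differed in how far the Vascepa arrays lay apart. F2, the precursor of thrombin, read 10.91, 10.79 and 10.60 in Vascepa livers, against 11.01, 10.93 and 10.97 in vehicle livers. All 3 Vascepa values lay below all 3 vehicle values, Vascepa replicate 1 and vehicle replicate 2 being the nearest arrays, and the difference was −0.21 ± 0.17 (limma, SE, adjusted p = 0.976). F7, the protease that works with tissue factor, read 9.12, 8.69 and 8.01 in Vascepa livers, against 8.97, 8.85 and 8.83 in vehicle livers, and F10, which forms the complex that activates prothrombin, read 9.38, 9.17 and 9.00006 in Vascepa livers, against 9.25, 9.23 and 9.27 in vehicle livers. F7, F10 and Proz are neighbours on chromosome 8, and Vascepa replicate 3 lay below replicate 1 by 1.11 in F7, 0.38 in F10 and 0.83 in Proz. F9, the protease missing in haemophilia B, differed by −0.12 ± 0.21, with 10.43, 10.17 and 9.77 in Vascepa livers, against 10.31, 10.14 and 10.27 in vehicle livers. None of the 4 passed. Without Vascepa replicate 3 the differences were −0.12 in F2, 0.028 in F7, 0.060 in F9 and 0.026 in F10.

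**Figure D2:**
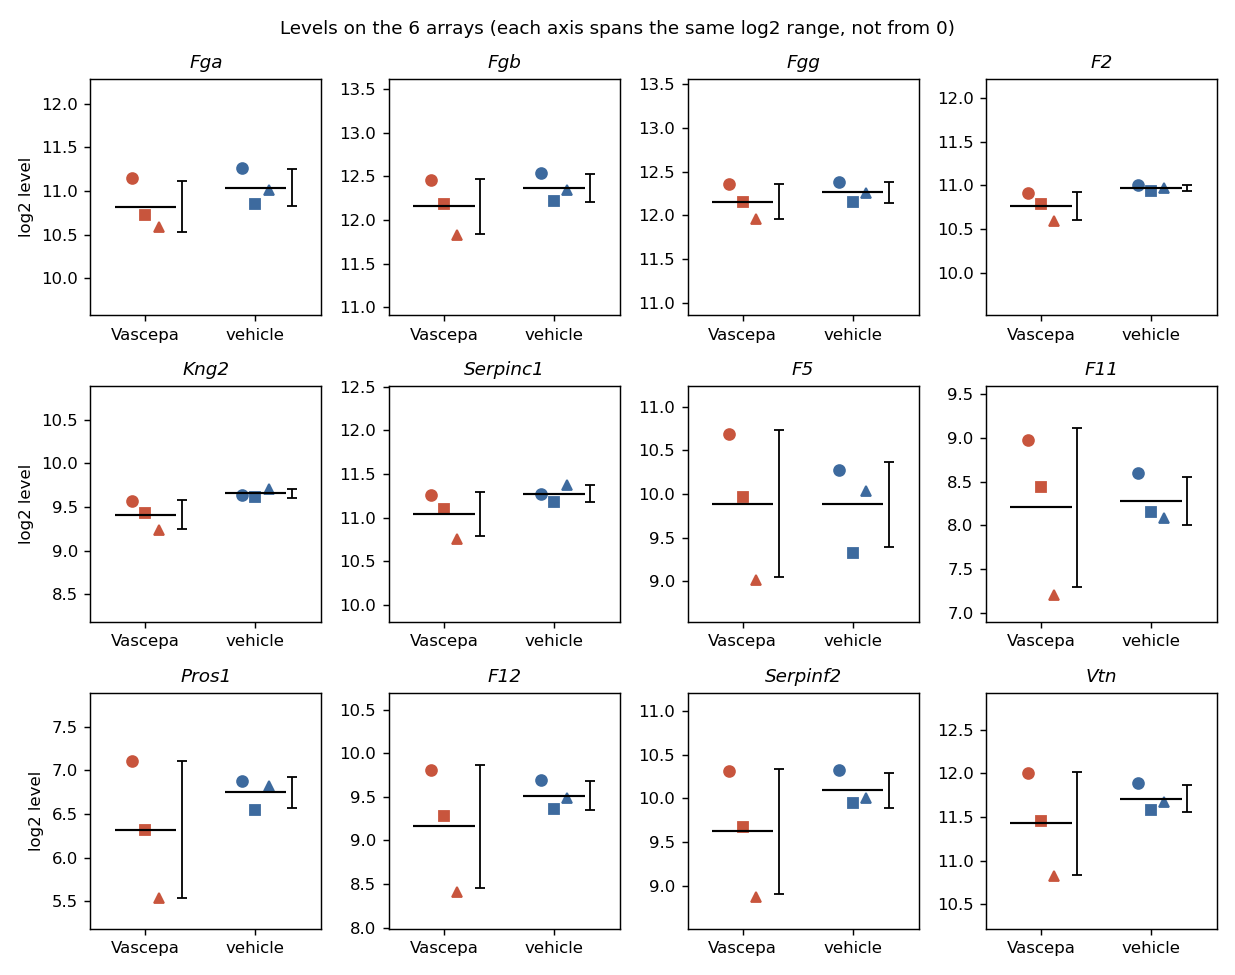
Log2 level of 12 genes on the 3 Vascepa arrays (red, left) and the 3 vehicle arrays (blue, right), with circles, squares and triangles for replicates 1, 2 and 3, a line at the mean and a bar of ± 1 SD. Every axis spans the same log2 range. In F5, F11, Pros1, F12, Serpinf2 and Vtn the Vascepa arrays are spread over more than 1 log2 unit, and in F2 and Kng2 they lie just below the vehicle arrays.

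Among the cofactors and the initiator, F5 varied most. F5, the cofactor of factor X, read 10.69, 9.96 and 9.02 in Vascepa livers, against 10.27, 9.33 and 10.04 in vehicle livers, with means of 9.89 ± 0.84 in Vascepa livers and 9.88 ± 0.49 in vehicle livers (SD, n = 3 each). The Vascepa arrays of F5 held both the highest and the lowest value, and the difference was 0.010 ± 0.43 (limma, SE, adjusted p = 0.998). F3, tissue factor, had the smallest p of this group and read 4.17, 4.06 and 3.93 in Vascepa livers, against 4.30, 4.16 and 4.59 in vehicle livers. Its Vascepa values lay low, with Vascepa replicate 1 just above vehicle replicate 2, and it differed by −0.29 ± 0.19 (limma, SE, adjusted p = 0.976). It was −0.23 when Vascepa replicate 3 was left out and −0.35 when replicate 1 was.

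The contact system, which starts clotting on negatively charged surfaces and releases bradykinin, held F11, whose Vascepa arrays lay far apart. F11 read 8.98, 8.44 and 7.20 in Vascepa livers, against 8.60, 8.16 and 8.09 in vehicle livers. Vascepa replicate 1 was its highest and Vascepa replicate 3 its lowest array, the widest gap of the 29 genes (replicate 3 minus replicate 1, −1.78), and the difference was −0.076 ± 0.42. Without Vascepa replicate 3 it was 0.43, and without Vascepa replicate 1 it was −0.46. F12, the protease that starts this system, read 9.81, 9.28 and 8.41 in Vascepa livers, against 9.69, 9.36 and 9.48 in vehicle livers and differed by −0.35 ± 0.34. The probe shared by Klkb1 (plasma prekallikrein) and Cyp4v3 read 9.27, 8.71 and 7.66 in Vascepa livers, against 9.27, 8.25 and 8.76 in vehicle livers. Its Vascepa arrays had the same order as those of F11, the other neighbour of Klkb1 on chromosome 8, while its vehicle arrays did not. Its difference was −0.21 ± 0.43, and which of the genes it reports was not tested.

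Kininogens and histidine-rich glycoprotein, which lie side by side on chromosome 16, varied less. Kng2 had the smallest p of the contact system and read 9.57, 9.43 and 9.24 in Vascepa livers, against 9.64, 9.62 and 9.71 in vehicle livers. The groups did not overlap, and the difference was −0.24 ± 0.18 (limma, SE, adjusted p = 0.976). Kng1, a closely related kininogen gene, read 9.003, 8.91 and 8.56 in Vascepa livers, against 8.91, 8.95 and 8.91 in vehicle livers and differed by −0.10 ± 0.19, with overlapping groups. RNA of one kininogen gene may bind the probes of the other, which was not tested. Hrg, which binds plasminogen and heparin, differed by −0.24 ± 0.24, with 12.12, 11.77 and 11.27 in Vascepa livers, against 12.02, 11.90 and 11.95 in vehicle livers.

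All 7 anticoagulant genes had differences below 0 (6 of 7 without Vascepa replicate 3), and none passed. Serpinc1 (antithrombin), with the smallest p of the group, read 11.25, 11.10 and 10.76 in Vascepa livers, against 11.27, 11.18 and 11.37 in vehicle livers. Only Vascepa replicates 2 and 3 lay below all vehicle arrays, and the difference was −0.24 ± 0.20 (limma, SE, adjusted p = 0.976). Serpind1, heparin cofactor II, differed by −0.15 ± 0.19. In the protein C pathway, Proc read 9.58, 9.19 and 8.37 in Vascepa livers, against 9.46, 9.33 and 9.35 in vehicle livers and Pros1, its cofactor protein S, read 7.11, 6.32 and 5.53 in Vascepa livers, against 6.88, 6.54 and 6.82 in vehicle livers. In both, Vascepa replicate 1 was the highest and Vascepa replicate 3 the lowest array. The differences were −0.33 ± 0.30 in Proc and −0.43 ± 0.37 in Pros1, and without Vascepa replicate 3 they were 0.0083 and −0.033. Proz, which helps to inhibit factor X, differed by −0.28 ± 0.24, with 9.62, 9.23 and 8.79 in Vascepa livers, against 9.56, 9.45 and 9.45 in vehicle livers.

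Among fibrinolysis genes Serpinf2, which encodes the plasmin inhibitor alpha-2-antiplasmin, had the smallest p within the group. Its difference was the most negative of the 29. Serpinf2 read 10.31, 9.67 and 8.88 in Vascepa livers, against 10.33, 9.95 and 10.002 in vehicle livers. Vascepa replicates 2 and 3 lay below all vehicle arrays while Vascepa replicate 1 lay just below the highest of them, and the difference was −0.47 ± 0.35 (limma, SE, adjusted p = 0.976). Plg, plasminogen, read 11.67, 11.21 and 10.66 in Vascepa livers, against 11.63, 11.08 and 11.36 in vehicle livers and differed by −0.18 ± 0.29. Vtn, vitronectin, which stabilises the inhibitor of plasminogen activators, read 12.00, 11.45 and 10.82 in Vascepa livers, against 11.88, 11.57 and 11.67 in vehicle livers and differed by −0.29 ± 0.30. Without Vascepa replicate 3 the differences were −0.097 in Serpinf2, 0.081 in Plg and 0.018 in Vtn. Without Vascepa replicate 1, 4 of 29 genes had an unadjusted p under 0.05, namely Serpinf2, Pros1, F12 and Vtn at −0.82, −0.82, −0.67 and −0.57, close to the 15% of all genes that did so. None of them passed after adjustment.

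**Figure D3:**
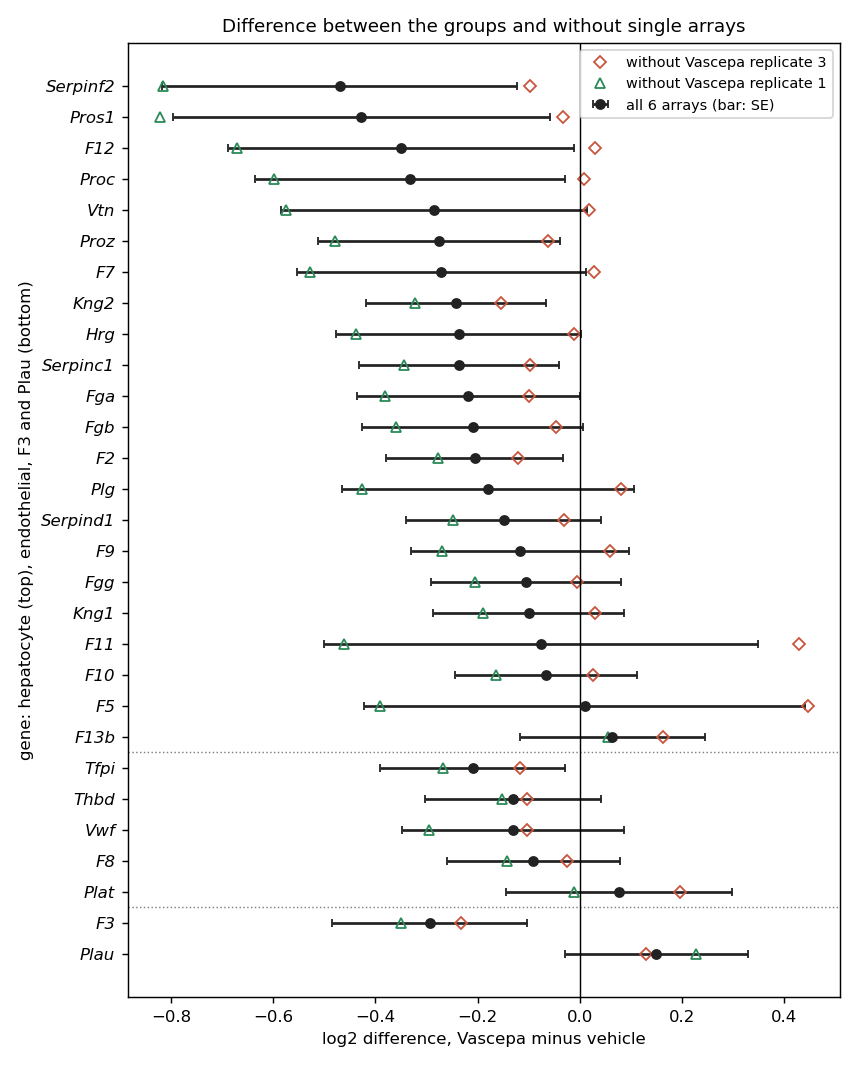
Log2 difference, Vascepa minus vehicle, of the 29 tested genes (rows) over all 6 arrays (black, bar ± 1 SE), without Vascepa replicate 3 (open diamonds) and without Vascepa replicate 1 (open triangles). Over all arrays Serpinf2 is lowest at −0.47 and Plau highest at 0.15, and in F5 and F11 the value without Vascepa replicate 3 is 0.45 and 0.43.

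The endothelial genes lay closer to the dim end of the arrays, where the filter level was 2.65, and their Vascepa arrays lay closer together, although 4 of 5 had replicate 1 above 2 above 3. F8, the cofactor of factor IX, was well above that level and read 6.88, 6.80 and 6.64 in Vascepa livers, against 6.87, 6.92 and 6.81 in vehicle livers (−0.091 ± 0.17). Tfpi, the inhibitor of tissue factor, read 3.87, 3.82 and 3.56 in Vascepa livers, against 3.82, 4.07 and 3.99 in vehicle livers (−0.21 ± 0.18). Vascepa replicate 3 was the lowest array in both genes and the groups overlapped. Vwf, von Willebrand factor, read 3.15, 2.55 and 2.77 in Vascepa livers, against 3.05, 2.74 and 3.07 in vehicle livers (−0.13 ± 0.22), with its lowest value on Vascepa replicate 2. Thbd, thrombomodulin, read 2.72, 2.70 and 2.63 in Vascepa livers, against 2.91, 2.88 and 2.65 in vehicle livers (−0.13 ± 0.17), with values close to the filter level. Plat, the tissue plasminogen activator, read 3.23, 3.12 and 2.81 in Vascepa livers, against 3.22, 2.64 and 3.06 in vehicle livers (0.076 ± 0.22), with its lowest value on vehicle replicate 2, and without that array the difference was −0.091. Some arrays of Vwf, Thbd and Plat lay under the filter level. None of the 5 passed (limma, adjusted p between 0.976 and 0.977). Whether the dimmest of these genes were expressed in the livers was not tested.

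As a group the 5 endothelial genes had a median difference of −0.13, and −0.10 without Vascepa replicate 3, with 4 of 5 lower. Their median lay at 0.014, −0.12 and −0.19 on Vascepa replicates 1, 2 and 3, and at 0.096, 0.052 and 0.027 on vehicle replicates 1, 2 and 3. Vascepa replicate 3 lay below replicate 1 by a median of 0.30 in these 5 genes and by a median of 0.75 in the 22 hepatocyte genes, a difference between the groups of genes that was not tested. All of the endothelial genes but F8 were dimmer than every hepatocyte gene, and the part of brightness in this difference was not tested. Of 12 markers of sinusoidal endothelium, all tested, 9 were lower, with a median of −0.084. Leaving out Vascepa replicate 3 gave a median of 0.016, and leaving out replicate 1 gave −0.17. The log2 of their summed level ranged from 10.05 to 10.22 in Vascepa livers and from 10.12 to 10.25 in vehicle livers. Vascepa replicate 1 lay above 2 above 3 in 4 of the 12. Of 6 markers of large vessel endothelium 5 were tested and 3 of them were lower, with a median of −0.087. In 0 of these 5 did the Vascepa arrays have that order, and replicate 3 lay above replicate 1 by a median of 0.20. Plau, the urokinase-type plasminogen activator, had a difference above 0 (0.15 ± 0.18). It read 3.49, 3.76 and 3.68 in Vascepa livers, against 3.54, 3.61 and 3.34 in vehicle livers, and Vascepa replicate 2 was its highest array.

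**Figure D4:**
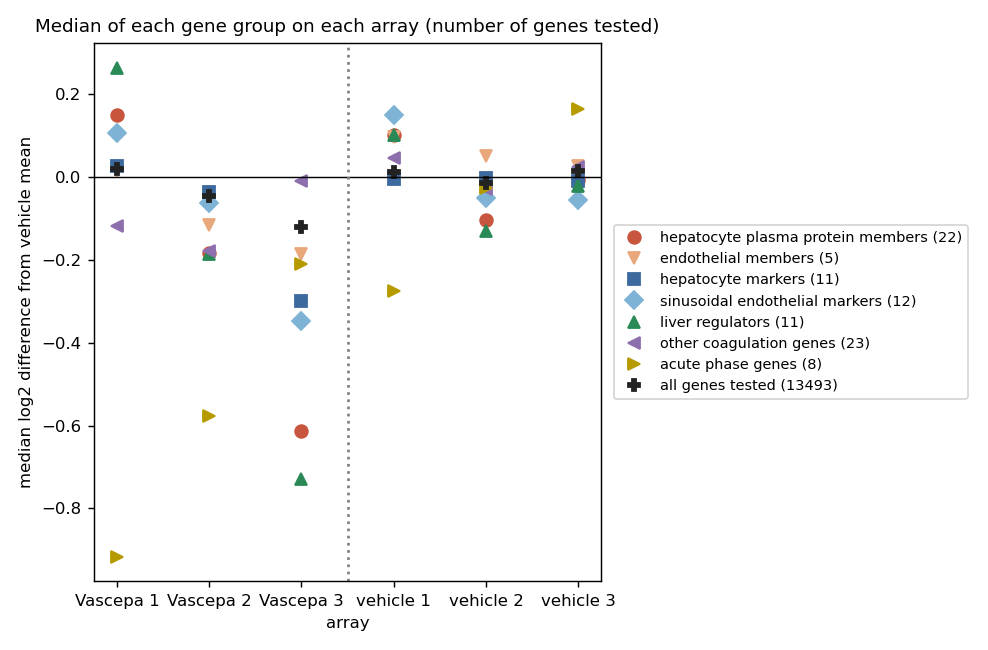
Median log2 difference from the vehicle mean (vertical axis) of 8 gene groups on each of the 6 arrays (horizontal axis, Vascepa on the left), with the number of genes tested in the legend. Hepatocyte clotting genes and liver regulators lie at −0.61 and −0.73 on Vascepa replicate 3, while acute phase genes are lowest on Vascepa replicate 1, at −0.92.

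Further genes of the pathway were read from a list of 29, of which 26 had a probe of their own and 23 were tested. Of these 23, 17 had differences below 0 and 6 above, with a median of −0.13, and none passed the adjusted threshold (limma). The smallest p belonged to Adamts13, the protease that cuts von Willebrand factor, which read 3.32, 3.52 and 3.64 in Vascepa livers, against 3.05, 3.12 and 2.82 in vehicle livers. Its groups did not overlap and the difference was 0.50 ± 0.19 (limma, SE, adjusted p = 0.976). Gas6, a vitamin K-dependent ligand of receptor kinases, came next at −0.51 ± 0.25. The groups did not overlap in 2 of the 23, Adamts13 and Vkorc1l1, the latter lower at −0.16, against 8.24% of all genes. The vehicle values of Adamts13 lay close to the filter level of 2.65. Single genes of the list ran in opposite orders across the arrays. Ggcx, the carboxylase that activates the vitamin K-dependent proteases, read 8.74, 7.13 and 6.45 in Vascepa livers, against 8.41, 7.36 and 7.90 in vehicle livers, in the order of the hepatocyte clotting genes. Vkorc1, which recycles vitamin K, read 9.03, 9.53 and 9.68 in Vascepa livers, against 9.13, 9.47 and 9.38 in vehicle livers, in the opposite order. Ggcx and Vkorc1 were chosen after their values were seen. Of the 23 genes 7 had Vascepa replicate 1 above 2 above 3.

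Regulators of liver transcription and of the interleukin-6 response were read in the same way. Of 12 listed genes 11 were tested, 9 had differences below 0 and none passed (limma). Their median was −0.21. Leaving out Vascepa replicate 3 gave 0.047, and leaving out replicate 1 gave −0.46. The smallest p were those of Onecut1, a liver transcription factor, at 0.85 ± 0.64, and Foxa1, a factor that opens liver chromatin, at −0.38 ± 0.30. Hnf4a, the main regulator of hepatocyte genes, read 9.10, 8.16 and 7.65 in Vascepa livers, against 8.84, 8.52 and 8.68 in vehicle livers. Il6ra, the interleukin-6 receptor, read 7.62, 7.15 and 5.75 in Vascepa livers, against 7.57, 7.29 and 7.22 in vehicle livers. Both genes, chosen after their values were seen, had the same order of Vascepa arrays as 21 of the 22 hepatocyte clotting genes. In the whole list 8 of 11 regulators had it, with Foxa2, Socs3 and Nr1h4 as exceptions.

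Markers of other liver cell types differed in whether they moved with the clotting genes. Markers of stellate cells and fibroblasts had a median of −0.11, with 5 of 6 lower, and of −0.0037 without Vascepa replicate 3. The log2 of their summed level was 10.19, 9.90 and 9.67 in Vascepa livers, against 10.06, 10.01 and 10.08 in vehicle livers, so it was lowest on Vascepa replicate 3 as well. Markers of Kupffer cells, the liver's macrophages, had a median of −0.19, with 6 of 7 lower (−0.45 without Vascepa replicate 3 and −0.039 without Vascepa replicate 1), and a log2 summed level of 8.80, 9.05 and 9.35 in Vascepa livers, against 9.39, 9.36 and 9.28 in vehicle livers. Among the Vascepa arrays this sum was highest on replicate 3, but Marco, Adgre1 and Cd68 were not, and Marco was lowest there. Replicate 1 lay above 2 above 3 in 0 of the 7. Vsig4, Timd4 and Cd68, all lower, had an unadjusted p under 0.05 (limma), 3 of 7 against 2.68% of all genes. In the same 3 the groups did not overlap, against 8.24% of all genes, and none of the 7 passed after adjustment. Markers of platelets and their precursors had a median of −0.13 (−0.021 without Vascepa replicate 3) over 4 tested of 6 listed genes. Their log2 summed level was taken over 5 genes, 1 of them under the filter. It ranged from 5.11 to 5.38 in Vascepa livers and from 5.23 to 5.56 in vehicle livers. Of 4 tested cholangiocyte (bile duct) markers 3 were higher, with a median of 0.083. Vascepa replicate 3 minus replicate 1 had a median of −0.40 in these 4. It had a median of 0.95 in the 2 tested neutrophil markers, of which 1 was higher and 1 lower in Vascepa livers. Only 1 red cell marker was tested, Slc4a1 (−0.094 ± 0.33). The part of these cells in the values of the clotting genes was not tested.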

How the data were processed

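Liver RNA of 6 samples, 3 Vascepa and 3 vehicle, was read on 1 Affymetrix array each. The authors deposited log2 expression values made with Affymetrix Expression Console and RMA, per the submitters' processing notes. For their versions and the genome build: not given in the sources used here. Background correction, quantile normalization and probe summary are the steps of RMA, which compresses differences of dim probes. The number of arrays limits the precision.

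Of 41345 probes 23521 had 1 gene symbol in the platform annotation, 1814 several and 16010 none, and 23328 symbols were updated by gene ID through RefSeq (GRCm38.p6). Probes with 1 symbol and a mean of at least 2.65, the median over every probe, were kept, and the probe with the highest mean stood for its gene, which left 13493 genes. The groups were compared with limma 3.58.1 in R 4.3.3 (lmFit, eBayes, no covariate), with Benjamini-Hochberg adjustment over all genes at 0.05. In 20 simulations with known changes, these steps recovered 13.3% of genes changed by a log2 of 1 and 83.8% at a log2 of 2. False calls were 5.82%. The simulated errors were independent between genes and arrays, so no array deviated in many genes at once as Vascepa replicate 3 did. The rates may therefore differ in these data. The differences of the 29 members lay between −0.47 and 0.15, so the absence of calls says little about changes of that size. Summaries used Python 3.11.15 and pandas 2.3.3.

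The members and gene lists were chosen with earlier results of these data known. Values on each array were to be given for the fibrinogen chains, the endothelial genes, genes with groups that do not overlap and the gene with the smallest p in each role group. Those of the remaining members were chosen after their values were seen. Promoter windows came from RefSeq, for 24 of the 31 genes.

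Alternatives were filters, centring, quantile normalization again, a trended prior, array weights, a replicate block, a small nucleolar RNA score, other probe choices and leaving out each array.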

Additional observations from a re-analysis of the deposited data

How the results depend on the processing

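No gene of the list passed the adjusted threshold (limma) under any alternative except array weights. These gave Vascepa replicate 2 a weight of 39.5 and no other array more than 2.33, in a fit that stopped before its tolerance, and called 4100 of 13493 genes and 7 of 29 members. These were Vwf, F3, Plau, Pros1, Serpinf2, Fga and Kng2, with adjusted p between 0.0117 and 0.0482. The small RNA score called 3 genes, none of them members.

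The direction of the members depended on single arrays. Of 29 genes 25 were lower, and 16 to 27 with 1 array left out, 16 being without Vascepa replicate 3. The hepatocyte median of −0.21 ranged from −0.39 to 0.0014. Members with groups that do not overlap numbered 2 of 29. They numbered between 2 and 19 with 1 array left out, 19 being without Vascepa replicate 1. They numbered 0 with arrays centred on the median of all probes. With arrays centred on the median of the tested genes, a setting chosen after seeing the data, they numbered 5. The share of all genes without overlap is not given for these settings, so the 19, 0 and 5 have no background. With fewer arrays, groups lie apart by chance more often. Without Vascepa replicate 1 the unadjusted p (limma) was under 0.05 in 15% of all genes. The first centring moved the median of all genes by −0.076 and left 27 members lower, the second by 0.10 and left 21. Since centring moves every gene alike, the sign turned only in genes closer to 0 than that shift. Relative to the median of all genes, the hepatocyte median was −0.15. It was −0.071 with the 75th percentile filter, 0.018 without Vascepa replicate 3 and −0.018 with the small RNA score. The endothelial median of −0.13 was −0.035 with array weights, −0.053 with the small RNA score and −0.030 with the second centring.

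Signs turned in the following members. The small RNA score gave 0.013 in F10, 0.30 in F11, 0.029 in F9 and 0.071 in Plg. Array weights gave 0.25 in F11 and −0.021 in F5. The first centring gave −0.012 in F13b and −0.066 in F5, and the second gave 0.034 in F10, 0.025 in F11, 0.0096 in F8 and 0.00035 in Kng1. Quantile normalization again gave −0.0039 in F5 and 0.0047 in F8. With 1 array left out, the lowest and highest differences were −0.16 and 0.026 in F10, −0.46 and 0.43 in F11, −0.67 and 0.029 in F12, −0.026 and 0.16 in F13b, −0.39 and 0.45 in F5, −0.53 and 0.028 in F7, −0.27 and 0.0599 in F9, −0.19 and 0.031 in Kng1, −0.091 and 0.20 in Plat, −0.43 and 0.081 in Plg, −0.60 and 0.0083 in Proc, −0.57 and 0.018 in Vtn, and −0.30 and 0.0072 in Vwf. The replicate block gave 0 calls and the same median of −0.21 as the fit without it, and it changed no call. Deviations of same-numbered arrays from their group means correlated at 0.484, 0.0518 and −0.120 (replicates 1, 2 and 3), and only Vascepa replicate 1 correlated best with its own number, so the numbers were not taken as pairs. The cause of these changes was not tested.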
